A study of Mus musculus with 8 samples.

Results

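Intergenic accessible regions were the regions of open chromatin that the deposited annotation places in no gene. Members were all regions of the table listed as intergenic on chromosomes 1 to 19. The rule used annotation and chromosome but no signal, and gave 149741 of 489637 regions (30.6%), or 31.3% of the 477757 regions of chromosomes 1 to 19. A further 7075 intergenic regions lay on other chromosomes and were not members. The data were 8 ATAC-seq libraries of the gastrocnemius, a calf muscle, from mice aged 6 months. ATAC-seq uses a transposase that cuts accessible DNA and attaches sequencing adapters to it. All animals had the genotype Cre+:iMSBmal1 fl/fl, so the controls also carried Cre and the floxed alleles of Bmal1. The Vehicle group (4 libraries) received vehicle and the iMSBmal1KO group (4 libraries) received tamoxifen, so loss of Bmal1 and exposure to tamoxifen cannot be told apart. The promoter that drives Cre, the sex of the mice and the time of day of collection are not given in the sources used here. The labels do not say whether replicates are separate animals, so p-values measure the spread between these libraries, which may be in part technical.

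Open chromatin between genes can hold enhancers, insulator sites and the starts of transcripts that an annotation lacks. Enhancers are bound by transcription factors and act on genes at a distance, and the nearest gene is not always the target. BMAL1, listed in the table under its symbol Arntl, pairs with CLOCK to bind E-box sequences in promoters and enhancers of clock-controlled genes. In skeletal muscle, enhancers bound by MYOD1 and by MEF2 proteins drive genes of the contractile fibre. Below, a nearest gene names the position of a region and no target is implied.

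Sequence could be read for the members that overlap a RefSeq promoter window, which runs from 250 bases before to 50 bases after a gene's start. A window can fall outside the genes of the deposited table where RefSeq lists a gene or a start that the table does not place there. Of the 31396 windows on chromosomes 1 to 19, 492 overlapped a member, and 707 members lay in them. The part of the window inside the member is printed below, 5′ to 3′ on the strand of the gene, from RefSeq on build GRCm38.p6. The first is shown because its member was the deepest of those tested in such windows. The second was next in depth. The third had groups that did not overlap. The fourth lies upstream of Myod1, a master regulator of muscle identity. Capitals mark AGGTCA, an element bound by nuclear receptors that include the clock proteins REV-ERB and ROR.
Gm40237, chr4:118547216-118547455, plus strand: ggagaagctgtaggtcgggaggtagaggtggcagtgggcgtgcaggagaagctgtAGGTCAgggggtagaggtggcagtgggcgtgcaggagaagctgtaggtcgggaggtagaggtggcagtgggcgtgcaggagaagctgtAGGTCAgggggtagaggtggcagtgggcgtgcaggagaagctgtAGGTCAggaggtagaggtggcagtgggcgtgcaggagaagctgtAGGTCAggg
D130051D11Rik, chr15:85634404-85634645, plus strand: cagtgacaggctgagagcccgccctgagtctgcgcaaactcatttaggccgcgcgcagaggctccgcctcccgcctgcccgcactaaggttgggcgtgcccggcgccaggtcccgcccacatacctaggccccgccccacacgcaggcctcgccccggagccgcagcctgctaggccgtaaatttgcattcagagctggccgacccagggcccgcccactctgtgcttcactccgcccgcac
Gm30470, chr11:79224591-79224734, plus strand: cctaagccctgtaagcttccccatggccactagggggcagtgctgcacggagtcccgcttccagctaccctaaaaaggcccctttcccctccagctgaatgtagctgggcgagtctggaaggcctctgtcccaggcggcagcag
Gm45923, chr7:46371153-46371452, plus strand: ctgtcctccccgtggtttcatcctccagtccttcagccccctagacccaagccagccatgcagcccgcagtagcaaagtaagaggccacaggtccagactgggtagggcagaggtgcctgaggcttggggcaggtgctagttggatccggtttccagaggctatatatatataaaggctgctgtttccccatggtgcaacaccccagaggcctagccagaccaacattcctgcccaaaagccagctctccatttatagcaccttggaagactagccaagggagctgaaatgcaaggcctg

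The Gm40237 stretch is a repeat with 4 copies of AGGTCA in 240 bases, and the other printed stretches hold none. The member it belongs to, chr4:118547216-118548782, had signals of 3557, 2315, 3564 and 5237 in Vehicle and 2018, 2145, 4314 and 2854 in iMSBmal1KO. Values are given in the order of replicates 1 to 4 throughout. Vehicle replicate 4 was highest and the groups overlapped. Signal here is the deposited value, a read count divided by a factor for its library. The D130051D11Rik member, chr15:85634404-85635259, had 2033 ± 377 in Vehicle and 1980 ± 194 in iMSBmal1KO (mean ± SD, 4 libraries each). The Gm30470 member, chr11:79224591-79225184, had 1244, 1177, 948 and 807 in Vehicle and 1279, 1659, 1440 and 1533 in iMSBmal1KO. All 4 iMSBmal1KO values lay above the Vehicle values, yet the log2 change (0.52 ± 0.18 SE) did not pass the test (limma, Benjamini-Hochberg adjusted p = 0.438). The member upstream of Myod1, chr7:46370996-46371570, lay 4.90 kb from that gene's start. Its signal was 1111, 772, 792 and 535 in Vehicle and 728, 939, 928 and 1004 in iMSBmal1KO, with overlapping groups (log2 change 0.20 ± 0.20 SE, limma adjusted p = 0.748).

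The windows reached by members belonged mostly to long noncoding RNAs, 89.8% of 492 against 36.0% of all windows. Motifs were searched on both strands. AGGTCA stood in 23.6% of the windows overlapped by a member and in 16.3% of all windows. Among windows of long noncoding RNAs alone, AGGTCA stood in 54 of the 222 that a tested member overlapped (24.3%) and in 18.95% of the 10869 that no member overlapped. CACGTG, the E-box that BMAL1 binds, stood in 5.69% of the overlapped windows and 7.14% of all windows. The wider E-box CANNTG, which includes CACGTG, stood in 78.9% and 72.2%, but among windows of long noncoding RNAs alone in 78.4% with a tested member and 78.3% without a member. TGANTCA, the AP-1 site, stood in 10.6% and 7.84%, and among those windows of long noncoding RNAs in 9.46% and 9.18%. CACGTG stood in 4.50% and 5.81% of the same windows. The core motif of the insulator protein CTCF stood in 4 of 492 (0.813%) and 25 of 31396 windows (0.0796%). Among windows of long noncoding RNAs it stood in 3 of 222 with a tested member (1.35%) and 6 of 10869 without a member (0.0552%). These shares rest on few windows. Median GC content was 50.7% in the overlapped windows and 53% in all. Among windows of long noncoding RNAs the order was reversed, with 52.2% where a tested member overlapped and 48.3% where no member did. These shares describe windows, and a match is not evidence of binding.

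Members in a RefSeq promoter window passed the filter on low signal more often than the others, 37.2% of 707 against 18.01% of 149034. Their median signal among regions that passed was 26.4 against 18.1. The median log2(signal + 1) of these 263 members stood above that of other tested members in each of the 8 libraries. The gap was 0.44 ± 0.16 in Vehicle and 0.48 ± 0.04 in iMSBmal1KO (mean ± SD, 4 libraries each, exact two-sided permutation p = 0.743 between groups). More broadly, 20340 members (13.6%) overlapped, in whole or in part, a RefSeq gene that the table does not annotate at that site. Of those, 71.0% overlapped long noncoding RNA genes and 20.2% protein-coding genes. A share of the intergenic class is therefore intergenic only by the annotation that the submitters used.

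The libraries held 4.31 M to 29.5 M read equivalents, where a read equivalent is the signal divided by the value of 1 read in that library. Vehicle replicate 4 was the shallowest, with 24.9% of regions at 0, and its mitochondrial share was 16.5% against 1.11% to 5.51% in the other libraries. Across tested regions its log2 signal correlated with other libraries at r of 0.80 to 0.85. Transcript starts of muscle fibre marker genes had a summed signal of 5728 to 9979 in Vehicle and 7329 to 9384 in iMSBmal1KO, with all 6 genes above the filter. The same sum was 333 to 532 and 398 to 553 for fibro-adipogenic markers, 127 to 146 and 96.6 to 167 for smooth muscle and pericytes, 67.4 to 87.5 and 70.2 to 107 for endothelium, and 50.1 to 78.2 and 53.7 to 74.0 for satellite cells. Macrophage markers (1 of 4 genes listed) gave 3.13 to 5.33 and 3.42 to 6.69, and neuron and liver markers 23.6 to 53.2 and 37.2 to 56.1. The ranges of the groups overlapped for every list. In whole muscle, fewer cells of a type and less signal per cell cannot be told apart.

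By the median over all regions of a class, intergenic regions were the weakest class of the table and the longest. Their median length was 124 bp against 106 to 113 bp in the 7 genic classes, and their median signal was 4.23 against 4.81 to 8.29. Only 27098 members (18.1%) passed the filter, which asked for the signal of about 10 reads in 4 libraries. Among genic classes the share that passed ran from 22.5% in later introns to 44.2% at transcript starts. Members made up 31.3% of autosomal regions and held 17.5% of autosomal signal, while transcript starts made up 14.5% of regions and held 49.5%.

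**Figure D1:**
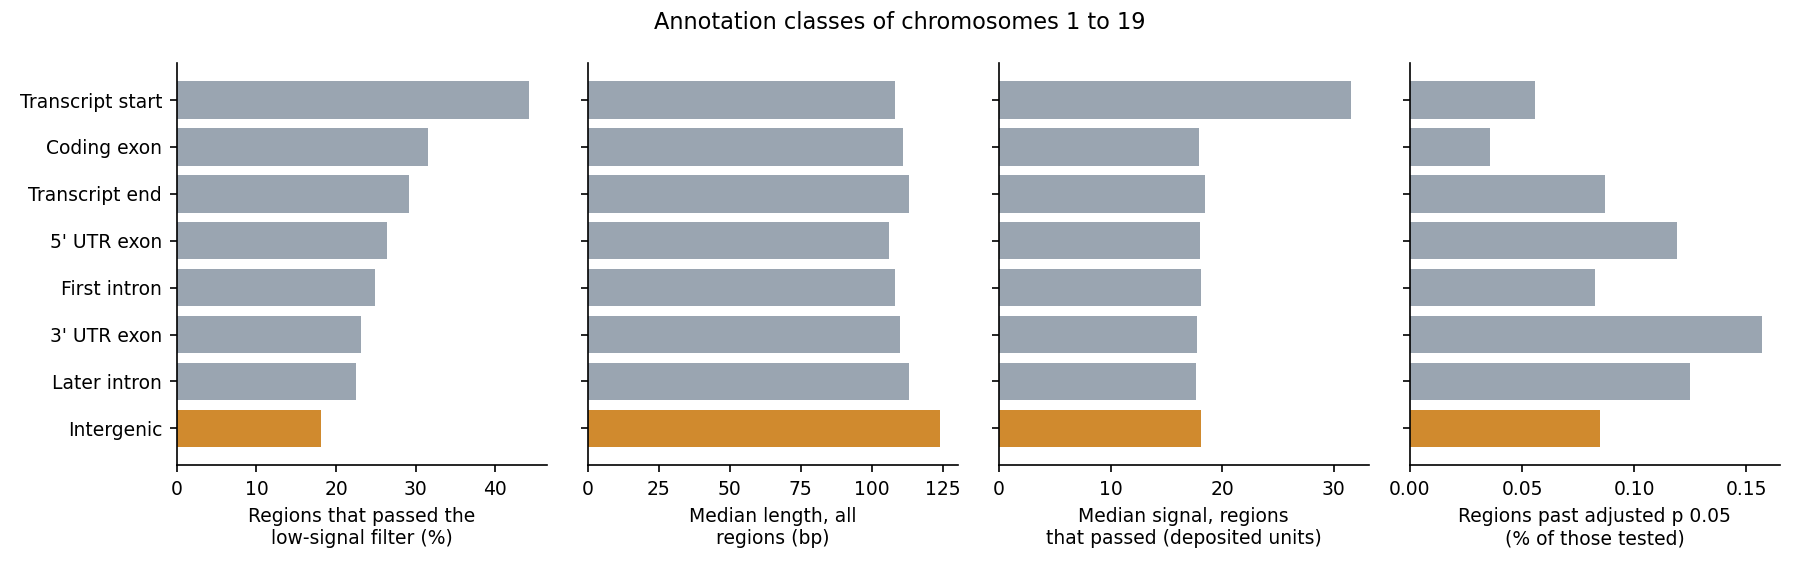
Share of regions that passed the low-signal filter, median length, median signal of those that passed and share past the test's threshold, by annotation class (bars, with the intergenic class in orange). Intergenic regions had the lowest share that passed, 18.1%, and the greatest median length, 124 bp, while their share past the threshold, 0.0849%, lay within the range of the genic classes.

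Once past the filter, intergenic regions resembled other regions away from transcript starts. Their median signal was 18.1, against 17.7 to 18.4 in the genic classes other than starts and 31.5 at starts. Within each library, the median log2(signal + 1) of tested members was compared with that of other tested regions. Against transcript starts it was lower in 8 of 8 libraries, by 0.73 on average (difference of -0.73, exact two-sided sign-flip p = 0.0078125, the smallest possible with 8 libraries). Against genic regions more than 1 kb from a start the difference was 0.06 (exact p = 0.125), with members lower in 1 library. These medians move in steps of about 1 read, and the difference was 0 in Vehicle replicates 1 and 2 and iMSBmal1KO replicate 4. Because a filter on low values was applied first, these values describe regions that passed it and not all members.

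Position within the intergenic space went with signal. The nearest transcription start among transcripts named in the table was a median of 29.3 kb away, and 90% of members lay between 2.87 and 327 kb. Up to 5 kb from a start there were 14435 members, of which 28.9% passed the filter. From 5 to 50 kb there were 81662, of which 20.8% passed, and beyond 50 kb 53644, of which 11.01% passed. Median length rose over the same bands, from 113 to 117 and 136 bp, while median signal fell from 5.60 to 4.57 and 3.62. Only transcripts that hold a region are named in the table, so these distances are upper estimates.

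Length and signal also went together. Members under 100 bp numbered 55487, and 6.93% of them passed the filter with a median signal of 2.31 over all of them. Members of 400 bp or more numbered 2264, and 90.0% of them passed, with a median signal of 195.8. These long members were 1.51% of the class and held 33.7% of its signal. The 2 measures are not independent, since a longer region collects more reads. Members also varied in their share of each chromosome's regions, from 23.7% on chromosome 19 to 38.4% on chromosome 3.

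A small number of sites held much of the intergenic signal. The deepest 1% of members (1497 regions) held 42.2% of it, and the 10 deepest held 6.49%. The deepest, chr12:3109872-3110208, lay 61.7 kb from the start of Gm9077. Its signal was 45318, 35617, 29199 and 42523 in Vehicle and 30918, 58199, 136692 and 78099 in iMSBmal1KO. The iMSBmal1KO replicate 3 value was the highest and the groups overlapped (limma adjusted p = 0.586). The second, chr2:98665024-98665230 near Gm10800, had 29752 ± 7985 in Vehicle and 30544 ± 13285 in iMSBmal1KO (mean ± SD, 4 libraries each). The deepest tested start region of Gm10800 itself had 438893 ± 140327 and 741342 ± 480993. Whether reads at the deepest sites map to a single place in the genome was not tested.

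The third deepest was also the longest member, 2306 bp at chr13:74528497-74530802, overlapping the RefSeq gene Gm20590. Its signal was highest in Vehicle replicate 4 (25755) and lowest in iMSBmal1KO replicate 1 (7408). The next were chr11:109011646-109012209 near Gm11670 and chr3:5860339-5860919 near Gm17934. The chromosome 11 member had 9268, 10990, 4469 and 4781 in Vehicle and 9854, 11946, 19763 and 14096 in iMSBmal1KO. The chromosome 3 member had 6511, 8380, 3080 and 2889 in Vehicle and 8305, 9754, 16133 and 10943 in iMSBmal1KO. At both, Vehicle replicates 3 and 4 were lowest and iMSBmal1KO replicate 3 highest, the groups overlapped, and neither passed the test (log2 changes 0.98 and 1.22, limma adjusted p = 0.490 and 0.468). A further member of the 10 deepest, chr17:36231211-36231741 near Gm4252, had this order of libraries with groups that did not overlap, 1767 to 4655 against 5430 to 9306 (limma adjusted p = 0.283). It was picked after its values were seen.

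The second longest tested member, chr8:126735165-126736863 near Gm45805, was 1699 bp with a signal of 2209 ± 436 in Vehicle and 2472 ± 211 in iMSBmal1KO (mean ± SD, 4 libraries each). The third longest, chr10:3112398-3113984 near Gm6667, was 1587 bp with 2315 ± 825 and 2098 ± 947. Both lay close to 0 in log2 change (0.18 and -0.18). Members within 10 kb of the first or last listed region of a chromosome numbered 125, and 56% of them passed the filter. They held 2.40% of the signal of all members with 0.0835% of the regions, and none of the 70 tested passed the threshold.

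The share of reads in intergenic regions did not separate the groups. Vehicle libraries had 17.3%, 17.0%, 18.3% and 18.8% of autosomal reads in members, and iMSBmal1KO libraries 17.3%, 16.8%, 17.5% and 17.1%. Means were 17.9% ± 0.865 and 17.1% ± 0.308 (mean ± SD, 4 libraries each, exact two-sided permutation p = 0.229, 0.8 after Benjamini-Hochberg adjustment over 7 such summaries). Vehicle replicates 3 and 4 were the highest and the groups overlapped. For Vehicle replicate 4, 18.8%, the 95% Wilson interval was 18.8% to 18.9%, which covers counting error only and is narrower than the spread between libraries.

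The distribution of reads among intergenic regions did not separate the groups either. Reads up to 5 kb from a start made up 14.4% ± 0.664 in Vehicle and 14.6% ± 0.303 in iMSBmal1KO, those from 5 to 50 kb 60.0% ± 1.44 and 59.1% ± 2.36, and those over 50 kb 25.6% ± 2.02 and 26.3% ± 2.65 (mean ± SD, 4 libraries each). The 10 deepest members held 5.54% ± 0.908 in Vehicle and 7.28% ± 3.00 in iMSBmal1KO, where replicate 3 alone had 11.3%. Members at listed chromosome ends held 2.24% ± 0.553 and 2.54% ± 0.860. Each of these comparisons had an adjusted p of 0.8 (exact permutation). Without iMSBmal1KO replicate 3 the difference of the 5 to 50 kb band changed from -0.860 to 0.224 percentage points, that of the band over 50 kb from 0.729 to -0.505 and that of chromosome ends from 0.296 to -0.0833. Without Vehicle replicate 4 the difference of the nearest band changed from 0.131 to -0.138. The gap between intergenic and genic regions more than 1 kb from a start was 0.05 ± 0.13 log2 units in Vehicle and 0.07 ± 0.05 in iMSBmal1KO (exact permutation p = 0.8). Without Vehicle replicate 3 this difference turned from 0.02 to -0.01.

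**Figure D2:**
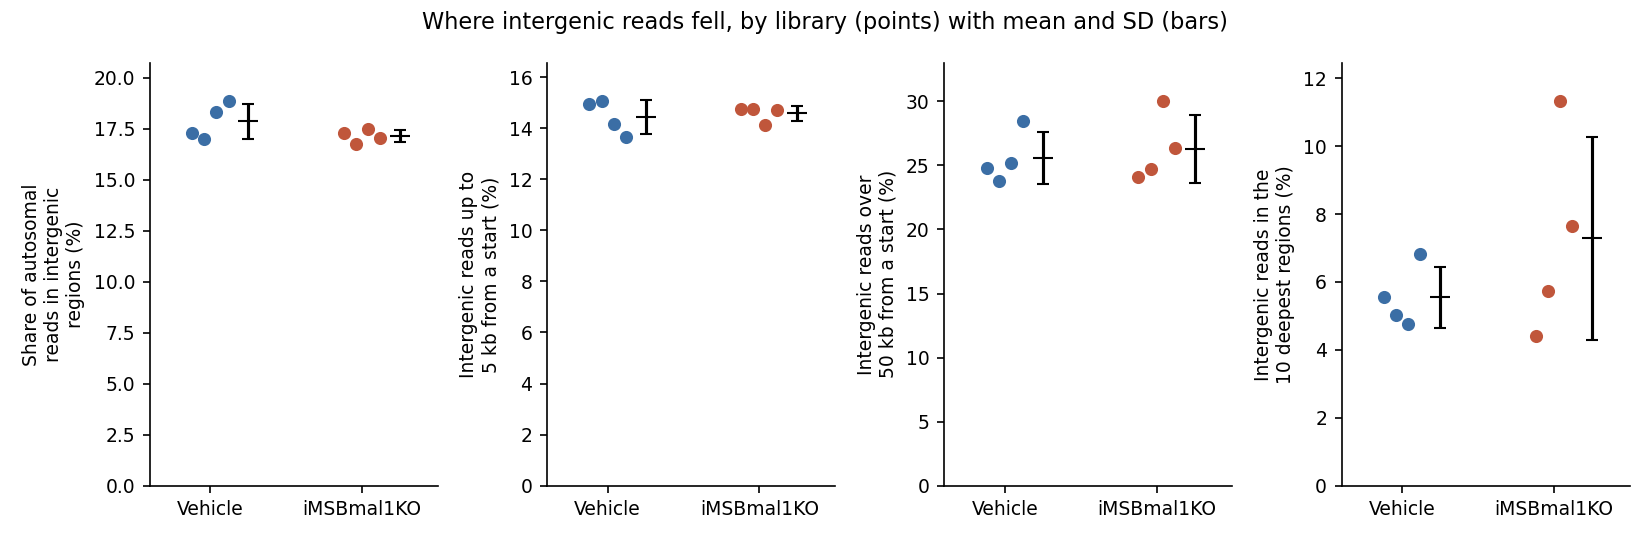
Percent of autosomal reads in intergenic regions and percent of intergenic reads in 3 sets of members, for each library (points) with the group mean and SD (bars, n = 4 each). The groups overlap in every panel, and the highest value for the 10 deepest regions, 11.3%, belongs to iMSBmal1KO replicate 3.

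At a limma adjusted p under 0.05 over all tested regions, 23 of the 27098 tested members differed between the groups, 9 higher and 14 lower in iMSBmal1KO. That is 0.0849% of tested members, beside 0.0881% of all 124901 tested regions (110 regions, 0.0312% higher and 0.0568% lower). Genic classes together had 85 of 95172 (0.0893%), with classes from 0.0358% in coding exons to 0.157% in 3' UTR exons. In this fit the share of changed intergenic regions was thus near the background. The classes were set side by side as a description. At an unadjusted p under 0.05, 10.5% of members passed (7.86% higher and 2.66% lower), against 9.22% of all tested regions (6.59% higher and 2.63% lower). Genic classes ran from 8.16% in first introns to 9.6% in later introns and 3' UTR exons, so members had the highest share at this threshold. Groups did not overlap at 1631 members (6.02%), against 5.48% of all tested regions.

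The median log2 change of tested members was 0.14, against 0.12 over all tested regions and 0.17 at transcript starts. A positive change was seen at 62.2% of tested members and at 62.0% of all tested regions. Scaling by median-of-ratios factors moved both medians, to 0.03 and 0.01, so changes are best read relative to the median of all regions. Total autosomal reads as the scale gave 52 called members, 14 higher and 38 lower. The count also turned on which library was left out. Leaving out Vehicle replicate 1, 2, 3 or 4 gave 4, 40, 7 and 75 called members, and the 75 included all 23. Leaving out iMSBmal1KO replicate 1, 2, 3 or 4 gave 21, 8, 9 and 11. The balance of directions moved as well, to 28 higher and 12 lower without Vehicle replicate 2 and to 1 higher and 7 lower without iMSBmal1KO replicate 2.

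**Figure D3:**
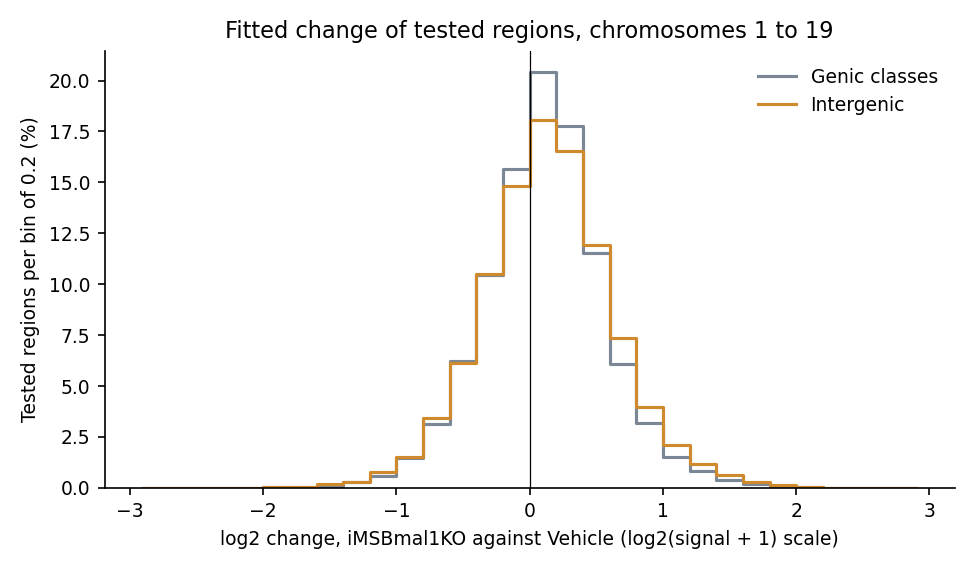
Share of tested regions by fitted log2 change between iMSBmal1KO and Vehicle on the log2(signal + 1) scale, in bins of 0.2, for intergenic regions (orange) and all genic classes of chromosomes 1 to 19 (grey). Both distributions peak just above 0, with medians of 0.14 for intergenic regions and 0.12 for all tested regions.

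The 23 called members lay on 14 chromosomes, with log2 changes from -2.34 to 2.22 and median length 181 bp. Their mean signals ran from 15.9 to 416.6, and single libraries held as few as 2 reads. In all 23 the groups did not overlap, an outcome that choosing regions by a small p in these same libraries favours. Their nearest starts lay a median of 22.2 kb and at most 128 kb away. By distance band, 3 of the 4172 tested members up to 5 kb from a start were called (0.0719%), 14 of 17022 from 5 to 50 kb (0.0822%) and 6 of 5904 beyond (0.102%).

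Among the higher members, the smallest p belonged to chr14:73630441-73630949, 35.0 kb from the start of Sucla2, which encodes a subunit of the citric acid cycle enzyme succinyl-CoA synthetase. Its signal was 26.6, 27.7, 28.6 and 37.5 in Vehicle and 147, 132, 113 and 188 in iMSBmal1KO. Every iMSBmal1KO value was well above every Vehicle value (log2 change 2.22 ± 0.24 SE, limma adjusted p = 2.98e-04). All 4 tested regions within 10 kb of it also had positive changes, with a median of 1.22. Among them chr14:73631594-73631877 fell just outside the threshold, with 31.3 to 104 in Vehicle and 175 to 249 in iMSBmal1KO (limma adjusted p = 0.0604).

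A member of chr18:20936759-20936886 lay 7.74 kb from Rnf125, which encodes a ubiquitin ligase. Its signal was 11.7, 9.25, 10.8 and 9.38 in Vehicle and 40.7, 53.5, 29.8 and 50.2 in iMSBmal1KO (log2 change 1.95 ± 0.30 SE, limma adjusted p = 0.00923). Vehicle values were low and close together, from 3 to 17 reads. A member near Gm21596, chr2:113978439-113978679, overlapped the RefSeq gene Gm39909. It had 4.26, 8.22, 8.90 and 12.5 in Vehicle and 41.1, 38.5, 46.5 and 31.4 in iMSBmal1KO. Its log2 change was 2.16 ± 0.34 SE (limma adjusted p = 0.00989).

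The member chr15:63012024-63012211 near Gm30159 had 9.59, 7.19, 6.99 and 6.25 in Vehicle and 31.7, 33.5, 23.9 and 27.6 in iMSBmal1KO (log2 change 1.83 ± 0.32 SE, limma adjusted p = 0.0257). It rested on 2 to 11 reads in Vehicle libraries.

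A further 4 higher members lay near Snx19, a sorting nexin, Ptprj, a receptor tyrosine phosphatase, Mboat1, an acyltransferase, and Gm50393. Their log2 changes ran from 1.13 near Ptprj to 1.77 near Gm50393. The Ptprj member was the deepest of the higher ones, with 170 ± 41.8 in Vehicle and 366 ± 47.4 in iMSBmal1KO (mean ± SD, 4 libraries each). The Mboat1 member, chr13:30254021-30254260, stood just inside the threshold with 38.4 ± 4.45 and 90.5 ± 8.34 (limma adjusted p = 0.0468).

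Among the lower members, the smallest p belonged to chr15:7013186-7013373, 17.1 kb from Gm38282 and overlapping the RefSeq gene Gm30559. Its signal was 268, 185, 140 and 122 in Vehicle and 34.7, 46.8, 40.6 and 61.5 in iMSBmal1KO (log2 change -1.90 ± 0.27 SE, limma adjusted p = 0.00363). The lowest Vehicle value was 122 and the highest iMSBmal1KO value 61.5. The member near Gm37223, chr1:184298854-184299025, had 149, 139, 148 and 78.2 in Vehicle and 25.3, 26.8, 38.2 and 45.2 in iMSBmal1KO (log2 change -1.89 ± 0.27 SE, limma adjusted p = 0.00467). Vehicle replicate 4 stood below the other Vehicle libraries there.

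The member near 4930540M05Rik, chr6:119883333-119883505, had 33.0, 32.9, 73.7 and 37.5 in Vehicle and 8.99, 7.53, 8.35 and 8.78 in iMSBmal1KO (log2 change -2.18 ± 0.33 SE, limma adjusted p = 0.00667). Vehicle replicate 3 was high, and the iMSBmal1KO libraries held 7 to 21 reads. The member near 4933402C06Rik, chr7:40698467-40698647, had 195, 158, 140 and 119 in Vehicle and 40.2, 41.0, 17.9 and 61.5 in iMSBmal1KO (log2 change -2.004 ± 0.30 SE, limma adjusted p = 0.00923). No tested region lay within 10 kb of the 4930540M05Rik member, and 3 of 4 such regions near the 4933402C06Rik member had a negative change.

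The member chr12:103361016-103361170 lay 5.01 kb upstream of Asb2, which encodes the substrate-binding part of a ubiquitin ligase made in muscle. It had 224, 128, 212 and 156 in Vehicle and 17.5, 48.5, 44.1 and 62.7 in iMSBmal1KO (log2 change -2.13 ± 0.32 SE, limma adjusted p = 0.0122). No value of one group fell within the other. Of the 14 other tested regions within 10 kb, 8 had a negative change, and their median was -0.02. The deepest tested start region of Asb2 itself had 762 ± 153 in Vehicle and 730 ± 216 in iMSBmal1KO (mean ± SD, 4 libraries each, limma adjusted p = 0.902).

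Some lower members lay close to each other. Regions near Gm39465 at chr9:122055970-122056100 and chr9:122056101-122056172 abutted, with log2 changes of -1.64 and -2.20, and are parts of 1 stretch. Regions near Nxph3, which encodes a neurexophilin, at chr11:95523177-95523391 and chr11:95525368-95525505 stood 1.98 kb apart, with log2 changes of -1.57 and -2.05. The first had 43.9 ± 11.3 in Vehicle and 13.9 ± 1.47 in iMSBmal1KO, and the second 42.9 ± 13.3 and 9.84 ± 3.88 (mean ± SD, 4 libraries each). Most other tested regions around them did not share their sign. A negative log2 change was seen at 3 of 9 within 10 kb of the first (median 0.32) and at 3 of 8 within 10 kb of the second (median 0.25). A called member near Fam181a, chr12:103283209-103283888, stood 77.1 kb from the Asb2 member and was the deepest of all called members, with 577 ± 108 and 256 ± 67.7 (log2 change -1.20).

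The remaining lower members lay near Gm45092, Adra1b, Oprd1 and 1700027A15Rik. Adra1b encodes an alpha-1 adrenergic receptor and Oprd1 the delta opioid receptor. The member near Gm45092 had the most negative change, -2.34, from 49.9 ± 10.5 to 10.2 ± 5.48. The member near Oprd1, chr4:132156794-132157423, was broad and deep, with 455 ± 54.9 in Vehicle and 213 ± 46.0 in iMSBmal1KO (mean ± SD, 4 libraries each, log2 change -1.10). The member near 1700027A15Rik stood just inside the threshold (limma adjusted p = 0.0468). Just outside it was chr7:137488506-137488665, near Glrx3, with 109 ± 23.1 and 45.3 ± 7.88 (limma adjusted p = 0.0513).

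**Figure D4:**
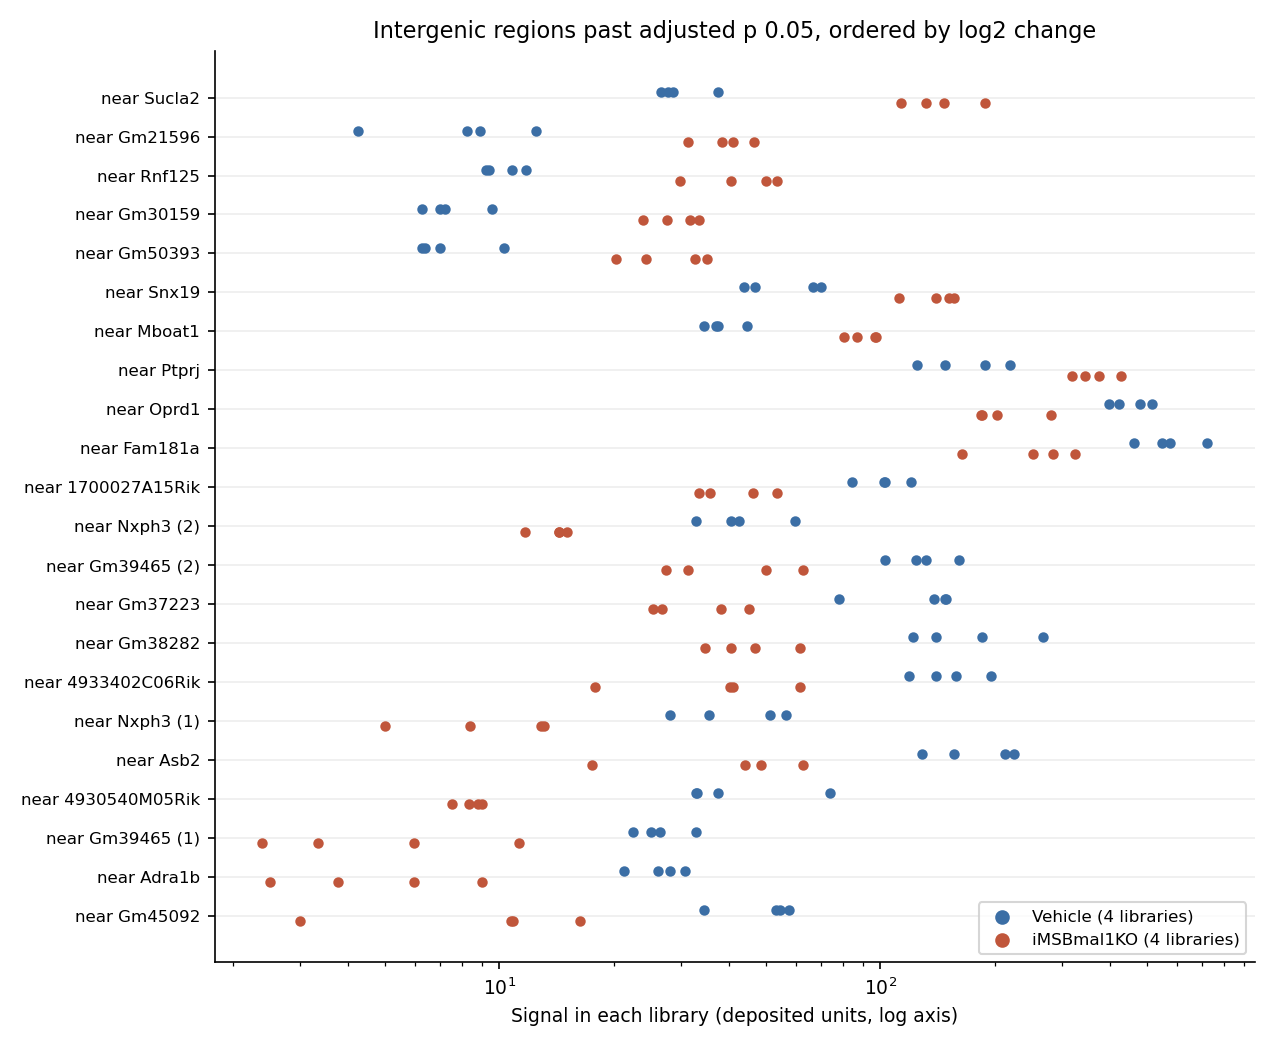
Signal in each library (log axis) at 22 of the 23 intergenic regions past an adjusted p of 0.05, ordered by log2 change from the highest (top) to the lowest, with Vehicle libraries in blue and iMSBmal1KO libraries in red. The 4 values of one group lie apart from the 4 of the other in all 22 regions, 8 of them higher in iMSBmal1KO. The regions were chosen by the test on these same values, which favours such separation. Regions are labelled by the nearest gene.

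The 23 called members had 21 nearest genes, and 12 of these had a tested region at a transcript start. None of the 12 start regions passed the threshold, and 9 had a change of the same sign as the intergenic member. The smallest adjusted p was 0.310, at the start of Mboat1, where signal was 23.5 ± 9.75 in Vehicle and 47.3 ± 5.96 in iMSBmal1KO (mean ± SD, 4 libraries each, limma). Over up to 20 other settings of the analysis, only the members nearest to Sucla2 (the called one) and Gm38282 kept their call each time. None of the 23 changed direction in any of them, but these settings reuse the same libraries and give no independent support.

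Intergenic regions nearest to circadian clock genes were counted for a list of 24 genes. Of these genes 17 had members, 123 in all, and 50 members of 13 genes were tested. No member was called, and 5 had an unadjusted p under 0.05 (10% against 9.22% of all tested regions), 2 higher and 3 lower. The median log2 change was -0.03, against 0.12 over all tested regions. The gene with the most tested members was Tef, which encodes a PAR bZIP factor of the clock's output, with 15. Their median change was -0.39. All 15 are neighbours within chr15:81828646-81839143 and weigh on the median of the list as 1 locus. The summed signal of all 16 Tef members was 3746, 3044, 3818 and 2545 in Vehicle and 1897, 3389, 2723 and 2895 in iMSBmal1KO, and the groups overlapped. The smallest adjusted p on the list, 0.410 (limma), was at chr11:120993220-120993429, 1.89 kb from Csnk1d, which encodes a kinase that phosphorylates PER proteins. Its signal was 139, 93.5, 139 and 125 in Vehicle and 62.1, 72.8, 77.5 and 89.1 in iMSBmal1KO, and the groups did not overlap. Members nearest to Arntl itself numbered 12, of which 3 were tested and none called. The 3 tested ones overlap the RefSeq gene Arntl. The summed signal of the 12 was 146, 150, 133 and 141 in Vehicle and 202, 163, 163 and 169 in iMSBmal1KO, and the groups did not overlap. The sum over 13 members nearest to Nfil3, a repressor of the clock's output, was 160 to 173 in Vehicle and 183 to 202 in iMSBmal1KO, also without overlap. These sums were not tested.

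A second list held 41 genes of muscle contraction, muscle transcription factors and muscle metabolism. Members lay nearest to 29 of them, 328 in all, and 133 members of 28 genes were tested. None was called and 77 had a positive change, with a median of 0.09 against 0.12 over all tested regions. At an unadjusted p under 0.05 there were 7 (5.26%), all higher (beside 6.59% of all tested regions), near Mef2c, Cacna1s, Ppargc1a, Trim63, Pvalb and Tnni2. The member near Ppargc1a, a coactivator of mitochondrial genes, chr5:51595696-51596051, had 158 ± 44.8 in Vehicle and 232 ± 22.4 in iMSBmal1KO (mean ± SD, 4 libraries each, limma adjusted p = 0.479). All 7 tested members nearest to this gene overlap the RefSeq gene Ppargc1a. The gene with the most members was Pdk4, which encodes a kinase that inhibits pyruvate dehydrogenase, with 51 members and 19 tested, a median change of -0.25. Several of the tested ones are close neighbours within chr6:5480725-5482735, and none of the 19 had an unadjusted p under 0.05. The summed signal of the 51 was 1535 to 2855 in Vehicle and 1561 to 2334 in iMSBmal1KO, and the groups overlapped.

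A few members had their libraries in the order of the mitochondrial share. For 8 of the 27098 tested members (0.0295%) the order of the 8 libraries by signal was the same as their order by mitochondrial share, beside 29 of 122270 tested autosomal regions (0.0237%). The exactly opposite order was seen at 19 members and at 96 tested autosomal regions. The share among members was near that of all autosomal regions and is read as no feature of the intergenic class. This group was picked after the values were seen. The deepest, chr12:97061434-97061955 near Gm5186, had 3372, 1713, 7111 and 18272 in Vehicle and 1272, 1576, 2912 and 2706 in iMSBmal1KO. The second, chr10:85025953-85026449 near Ric8b, had 1987, 1133, 5735 and 14302 in Vehicle and 843, 932, 1707 and 1650 in iMSBmal1KO. At both, Vehicle replicates 4 and 3 were highest and the groups overlapped. The 8 had log2 changes of -1.59 to -0.50 and none was called (smallest limma adjusted p = 0.549). The mitochondrial share was 3.31%, 2.26%, 5.51% and 16.5% in Vehicle and 1.11%, 1.40%, 3.06% and 2.70% in iMSBmal1KO. The origin of reads at these members was not tested.

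**Figure D5:**
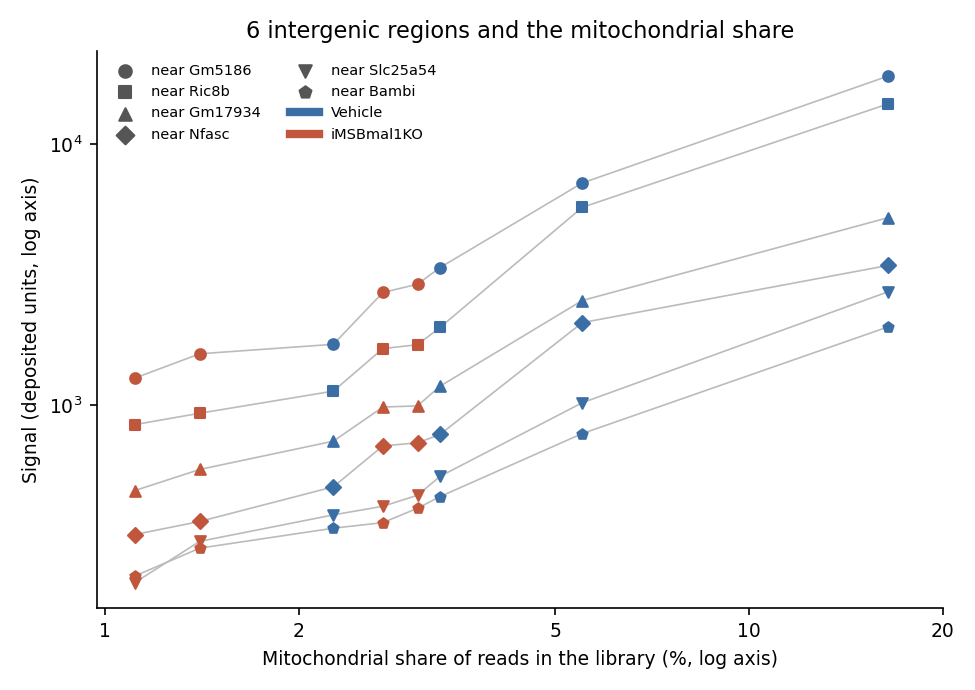
Signal (log axis) against the mitochondrial share of reads (percent, log axis) in the 8 libraries, for the 6 deepest of the 8 intergenic regions chosen because their order of libraries matches that of the share. Lines join the libraries of 1 region, Vehicle libraries are blue and iMSBmal1KO libraries red, and Vehicle replicate 4 lies at the far right at 16.5%.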

How the data were processed

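ATAC-seq was measured in 8 libraries, 4 Vehicle and 4 iMSBmal1KO, grouped by the labels. The authors deposited a signal per region and library, with gene annotation. Between 98.3% and 99.8% of non-zero signal values per library were whole multiples of 1 step within 0.02 reads, so signal was taken as reads divided by a library factor. The submitters' processing notes name Bowtie2, MACS2, Partek and DESeq2, and the builds mm10 and GRCm39, with no versions or order. Removal of duplicates and the transposase shift are not given in the sources used here. Of 22136 genes matched to RefSeq by symbol and chromosome (82.6% of those listed), 99.9% overlapped their GRCm38.p6 position, the assembly of mm10, so coordinates are taken as that build. They are counted from 1 with both ends included.

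Tested regions had 0.762 CPM in read equivalents (10 reads at median depth) in 4 or more libraries, and 15 reads in total. The test was limma-trend with robust moderation on log2(signal + 1) (limma 3.58.1, R 4.3.3), fitted on all tested regions and adjusted by the Benjamini-Hochberg method over them. Log2 changes are on that scale, which understates changes of weak regions. One value per library was compared with exact permutation tests over 70 arrangements, where the smallest possible p is 0.0286 before adjustment. Tables and figures used Python 3.11.15, pandas 2.3.3, numpy 2.4.6, scipy 1.17.1 and matplotlib 3.10.9. On simulated data with a dispersion of 0.05, the fit called 14% of regions changed 2-fold and 77% of those changed 4-fold. It called no unchanged region. Most 2-fold changes went uncalled, so a region that was not called may still have changed.

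Members and gene lists were chosen with earlier results of these data known. The rule for named regions took all called members (5 in each direction in full), the 5 deepest, the 3 longest tested, 2 on each side of the threshold, the clock gene with the most tested members, and called pairs within 50 kb. A called member that the rule covers, counted in the totals, is not reported here by itself. Other regions named, the pair with a 77.1 kb gap, the members in promoter windows, the remaining members near clock and muscle genes and those that followed the mitochondrial share were added after values were seen. Alternatives were other scalings, filters, pseudocounts, thresholds, a replicate block, merging of abutting regions (39.1% of members abut another region) and leaving out each library. Alternatives on chromosome ends and the deepest members were chosen after seeing the data.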

Additional observations from a re-analysis of the deposited data

Results flagged for a closer look

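In each group of 4 libraries, the distance from the most extreme library to its nearest neighbour was set against the range of the group and compared with Dixon's 95% limit. Of 60 group values 5 went past it, where chance gives about 3.

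The gap between intergenic and genic regions away from starts was 0.25 log2 units (0.248506) in Vehicle replicate 4, where the other 3 Vehicle libraries had -0.05 to 0. The medians in Vehicle replicate 4 were signals of 18.8 and 15.6. In that library 1 read is a signal of 3.13, so the gap is a step of 1 read. The share of intergenic reads up to 5 kb from a start was 14.1% in iMSBmal1KO replicate 3, where the rest of its group had 14.7% to 14.8%. Members at listed chromosome ends held 3.07% of intergenic reads in Vehicle replicate 3, where the rest of its group had 1.91% to 2.03%. At the called member near Gm37223, Vehicle replicate 4 had 78.2 and the rest of its group 139 to 149. At the called member near 4930540M05Rik, Vehicle replicate 3 had 73.7, against 32.9 to 37.5, and without that library the call was lost (limma adjusted p = 0.0647).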

How the results depend on the processing

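Against 23 called members (9 higher, 14 lower), limma-voom with quality weights gave 147 (50 higher, 97 lower), loess scaling 89 (29 and 60), median-of-ratios factors 72 (27 and 45), trimmed-mean factors also 72 (27 and 45), total autosomal reads 52 (14 and 38), no filter 49 (28 higher), a pseudocount of 5 38 (17 higher) and a threshold of 0.01 7 (3 and 4). Merging abutting regions gave 33. Leaving out 1 library gave 4 to 75 (1 to 28 higher, 2 to 50 lower). The share of members called, 0.0849% against 0.0881% of all regions in the main fit, stood above that of all regions with voom and each scaling. It was 0.542% against 0.43% with voom and 0.328% against 0.274% with loess. Median-of-ratios factors gave 0.266% and 0.223%, trimmed-mean factors 0.266% and 0.222%, and total reads 0.192% and 0.179%. The median log2 change, 0.14, was 0.0323 with voom, 0.0258 with loess, 0.0255 with median-of-ratios and 0.0261 with trimmed-mean factors, 0.0171 with total reads, -0.00542 with no filter, and 0.0613 to 0.184 over libraries left out. The cause of these shifts was not tested.

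Directions of uncalled differences turned as follows, with the range over libraries left out. The gap between intergenic and genic regions ran from -0.00994 (without Vehicle replicate 3) to 0.0894, and the nearest band from -0.138 (without Vehicle replicate 4) to 0.331 percentage points, or -0.172 over tested regions alone. The 5 to 50 kb band ran from -1.56 to 0.224, the band over 50 kb from -0.505 to 1.70 and chromosome ends from -0.0833 to 0.572, with the turned values all without iMSBmal1KO replicate 3. With a replicate block 20 members were called, 14 of them among the 23. Same-numbered libraries deviated together at r of -0.06 to 0.14 and no Vehicle library correlated best with its own number, so the numbers were not taken as pairs. The summaries per library had exact p of 0.125 to 1 with the block. The count models planned on read equivalents were not run, because not every value came out as a whole read. Depth limits members with fewer than about 10 reads, which made up most of the class.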
